A study of Mus musculus with 6 samples.

Results

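The genes described here are 10 genes of the insulin-like growth factor (IGF) system: the ligand gene Igf1, the receptor genes Igf1r and Insr, the binding protein genes Igfbp2, Igfbp3, Igfbp4, Igfbp5, Igfbp6 and Igfbp7, and the RNA-binding protein gene Igf2bp2. They are a list of named genes, drawn up with earlier results of these data known and found by symbol among the 55536 genes counted. All 10 passed the filter on low counts that left 22404 genes for testing. Their RNA was measured by RNA-seq in cultured satellite cells, the stem cells of skeletal muscle, in 3 control and 3 cKO samples of strain C57BL/6J. By the methods of the study, control mice were Pax7CreErt2;Hira fl/+ and cKO mice were Pax7CreErt2;Hira fl/fl, whereas the sample labels give the controls as WT. Hira encodes a chaperone that deposits the histone variant H3.3, and the series asks how activated satellite cells change without it. All mice carried the Cre allele and were males of 8 to 12 weeks that received tamoxifen in the diet for 2 weeks. Their muscles were injured with barium chloride, and satellite cells were sorted 5 days later, using antibodies that select for CD34 and ITGA7 and against CD45, TER119 and SCA1. The cells were cultured for 48 h in medium with high serum and bFGF, a growth factor, before RNA extraction. Cre is driven by Pax7, so that deletion is limited to cells that have expressed Pax7 and any other cell in the culture keeps Hira.

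IGF1 is a secreted growth factor of muscle repair that binds the receptor tyrosine kinase IGF1R and, with lower affinity, the insulin receptor INSR. Both receptors signal through the adaptors IRS1 and IRS2 to PI3K, AKT and mTORC1, which promote protein synthesis and restrain the FoxO transcription factors. IGF binding proteins (IGFBPs) hold IGFs outside the cell, limiting or prolonging their access to the receptor, and proteases such as PAPP-A release the growth factor by cutting them. IGF2BP2 is not a binding protein for IGF2 itself but for mRNAs, among them that of Igf2.

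Coordinates of the genes are those of mm10. Igf1 (ENSMUSG00000020053) lies on chromosome 10 from 87858265 to 87937042, Igf1r (ENSMUSG00000005533) on chromosome 7 from 67952827 to 68233668 and Insr (ENSMUSG00000005534) on chromosome 8 from 3122061 to 3279617. Igfbp2 (ENSMUSG00000039323, 72824503 to 72852474) and Igfbp5 (ENSMUSG00000026185, 72857932 to 72874884) are neighbours on chromosome 1, 5457 bp apart on opposite strands. Igfbp3 (ENSMUSG00000020427, 7206086 to 7213923) and Igfbp4 (ENSMUSG00000017493, 99041244 to 99054392) are on chromosome 11. Igfbp6 (ENSMUSG00000023046) lies on chromosome 15 from 102144362 to 102149511, Igfbp7 (ENSMUSG00000036256) on chromosome 5 from 77349240 to 77408041, and Igf2bp2 (ENSMUSG00000033581) on chromosome 16 from 22059009 to 22163299. Their exons overlap no other annotated exon, except that 7.03% of the exonic bases of Igfbp7 lie opposite exons of Polr2b. At most 0.914% of the 75-base windows of any of the 10 genes occur in another gene, so few of their reads could belong elsewhere.

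Promoter sequences, the 250 bases before the transcription start, were taken from a table of RefSeq promoters (GRCm38.p6) in which 9 of the 10 genes were matched; that of Insr was not used here. Shown are those of the 3 genes with the largest increase in cKO, Igf2bp2, Igfbp7 and Igfbp2, and, beside them, that of Igfbp3, whose level was close in both groups. They are written 5′ to 3′ on the strand of the gene, which is the minus strand for Igf2bp2, Igfbp7 and Igfbp3 and the plus strand for Igfbp2. Capitals mark GC boxes, the letters GGGCGG on either strand, which cannot overlap the TATA box searched for beside them. The positions are chr16:22163300-22163549 for Igf2bp2, chr5:77408046-77408295 for Igfbp7, chr1:72824230-72824479 for Igfbp2 and chr11:7213924-7214173 for Igfbp3.
Igf2bp2: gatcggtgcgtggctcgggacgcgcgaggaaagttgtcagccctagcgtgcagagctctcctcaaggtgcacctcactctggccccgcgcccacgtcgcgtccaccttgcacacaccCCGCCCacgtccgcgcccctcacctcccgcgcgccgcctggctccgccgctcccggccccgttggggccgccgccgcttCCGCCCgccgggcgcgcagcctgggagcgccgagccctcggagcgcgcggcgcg
Igfbp7: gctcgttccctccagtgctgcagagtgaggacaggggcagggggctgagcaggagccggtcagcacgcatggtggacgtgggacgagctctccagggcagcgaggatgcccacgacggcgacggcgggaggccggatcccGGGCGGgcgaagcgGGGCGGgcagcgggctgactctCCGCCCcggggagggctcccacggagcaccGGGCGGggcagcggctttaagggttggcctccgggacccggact
Igfbp2: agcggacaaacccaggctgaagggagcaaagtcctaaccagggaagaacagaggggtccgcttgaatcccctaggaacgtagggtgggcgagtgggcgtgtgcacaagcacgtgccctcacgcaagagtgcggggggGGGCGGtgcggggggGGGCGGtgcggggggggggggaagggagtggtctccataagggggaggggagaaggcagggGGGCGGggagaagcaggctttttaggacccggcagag
Igfbp3: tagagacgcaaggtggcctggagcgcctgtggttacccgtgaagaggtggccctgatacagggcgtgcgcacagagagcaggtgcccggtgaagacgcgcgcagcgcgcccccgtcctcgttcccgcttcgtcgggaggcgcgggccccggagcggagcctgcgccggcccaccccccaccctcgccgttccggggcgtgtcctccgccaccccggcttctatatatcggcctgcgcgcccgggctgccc

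These windows held 2 GC boxes in Igf2bp2, 4 in Igfbp7, 3 in Igfbp2 and 0 in Igfbp3, and a GC box occurred in 32.7% of all 32841 RefSeq promoters of this length. Igf1r, which also rose in cKO, had 2. The windows of Igf1 and Igfbp4, which rose in cKO as well, had 0, as had those of Igfbp5 and Igfbp6. The window of a second, downstream start of Igfbp2 also had 0. A link between GC boxes and the changes in cKO was not tested. The GC content was 77.2% in Igf2bp2, 74.0% in Igfbp7, 67.2% in Igfbp2 and 73.2% in Igfbp3, against a median of 52.4% over all promoters. The letters of a TATA box (TATAAA, either strand, at any position of the window) were found in Igfbp4 and Igfbp6, and in 12.4% of all promoters. In Igfbp6 they were on the opposite strand only. The FoxO site GTAAACA was found on neither strand in any of these windows, and in 3.17% of all promoters. The Igf1 window lies wholly within annotated exons.

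The counts assigned to genes were 47944477 to 63323577 per sample. The biological coefficient of variation, a common value that edgeR fits over all genes apart from counting noise, was 3.92%. Differences between cKO and control were tested over all 22404 genes with edgeR's quasi-likelihood test, and genes with a Benjamini-Hochberg adjusted p under 0.05 are called upregulated or downregulated. Levels are given in CPM, the counts scaled to the total of the sample, whereas fold changes come from the fit, which scales the samples by the TMM method. Hira itself had 375, 348 and 341 counts in control and 161, 293 and 272 counts in cKO replicates 1, 2 and 3. Its log2 fold change, cKO over control, was -0.43 ± 0.12 (standard error, SE) with an adjusted p of 0.0237, or -0.34 with an adjusted p of 0.104 without control replicate 1. These counts do not separate the floxed exons, and 44.7% of the exonic bases overlap a gene on the same strand. The controls, being fl/+, also carry a floxed allele. For satellite cells of cKO mice the paper reports a much lower Hira RNA level by RT-qPCR and no HIRA protein by immunostaining.

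Of the 10 IGF genes, 6 were upregulated in cKO (Igf1, Igf1r, Igfbp2, Igfbp4, Igfbp7 and Igf2bp2), 1 was downregulated (Insr) and 3 did not pass the test (Igfbp3, Igfbp5 and Igfbp6). Of all genes tested, 9.38% were upregulated and 6.46% were downregulated. The same 6 genes had every cKO sample above every control sample, which was the case for 20.3% of all genes, and Insr had every cKO sample below, as did 11.1% of all genes. The log2 fold changes ran from -0.21 to 0.51 with a median of 0.18, against -0.0011 over all genes. The changes were small, from 10.3% to 42.2% for the upregulated genes, as were most changes in these samples, where 88.7% of all called genes had an absolute log2 fold change under 1. Without cKO replicate 2, Igf1r lost its call and Igfbp5 gained one, which gave 5 upregulated and 2 downregulated genes.

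**Figure D1:**
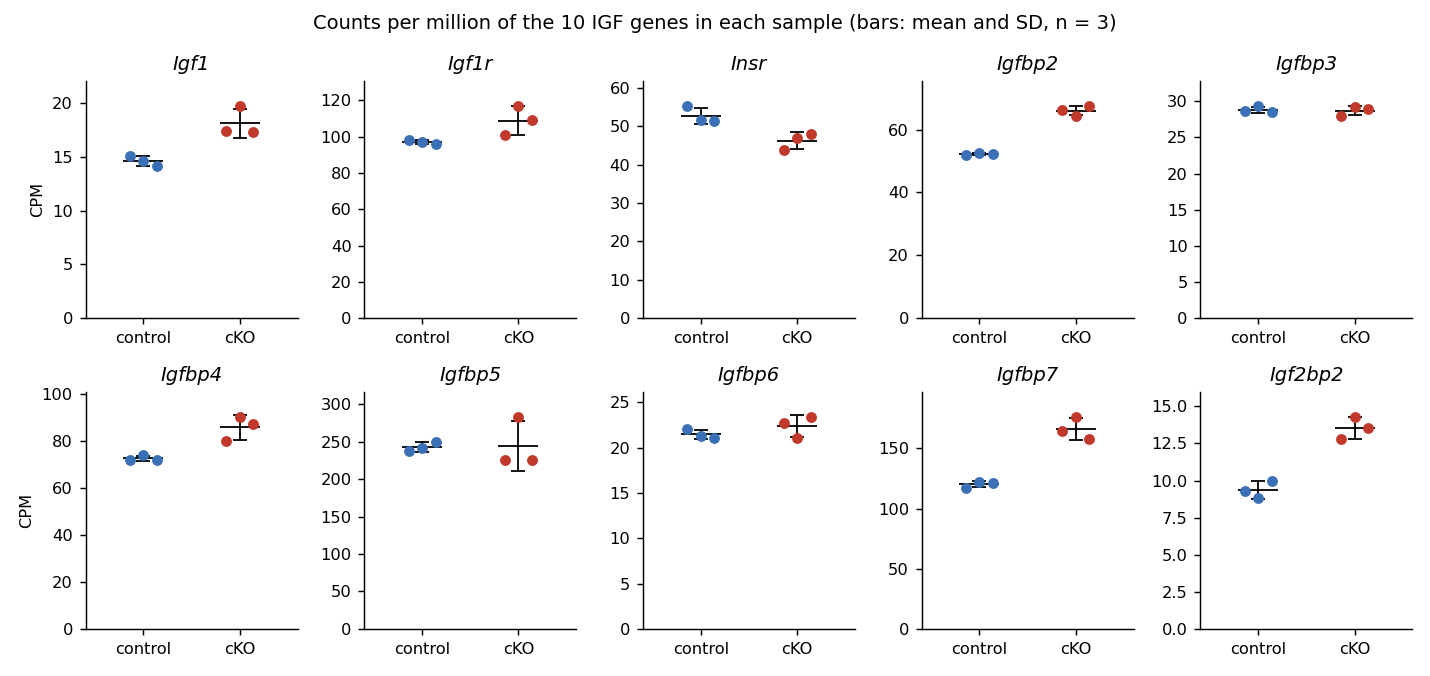
Level of each of the 10 IGF genes in CPM (y axis from 0) in the 3 control (blue) and 3 cKO (red) samples, ordered by replicate number from left to right, with bars for the mean and SD. The groups do not overlap for Igf1, Igf1r, Insr, Igfbp2, Igfbp4, Igfbp7 and Igf2bp2, and they overlap for Igfbp3, Igfbp5 and Igfbp6, where cKO replicate 2 of Igfbp5 stands at 283 CPM.

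Compared per length, the 10 genes differed far more from each other than between the groups. In control, Igfbp7 had 99.3 ± 1.98 CPM per kilobase of exon (SD, n = 3), above 96.6% of tested genes. It was followed by Igfbp5 with 40.4 ± 1.09, Igfbp2 with 28.3 ± 0.168, Igfbp6 with 19.3 ± 0.469, Igfbp4 with 16.4 ± 0.242 and Igfbp3 with 9.21 ± 0.133 CPM per kilobase. All 6 binding protein genes were thus above both receptors, of which Igf1r had 5.79 ± 0.068 and Insr 3.83 ± 0.158 CPM per kilobase. The lowest were Igf1 with 1.48 ± 0.048 and Igf2bp2 with 1.27 ± 0.080, the latter above 37.3% of tested genes. No neighbours in this order had overlapping control samples. The order of the means was the same in cKO, where the samples of Igfbp6 and Igfbp4 overlapped, as did those of Igf1 and Igf2bp2. With the longest transcript as the length, Igfbp2 (50.5) was above Igfbp5 (40.7), Igfbp4 (22.4) above Igfbp6 (20.1) and Igf2bp2 (2.73) above Igf1 (2.57 CPM per kilobase) in cKO. In control, these 3 pairs then kept the order of their means with overlapping samples.

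The ligand gene Igf1 was upregulated in cKO. It had 15.1, 14.7 and 14.2 CPM in control replicates 1, 2 and 3 versus 17.4, 19.7 and 17.4 CPM in cKO replicates 1, 2 and 3. The highest control sample was below the lowest cKO sample, and cKO replicate 2 stood above the other two. The log2 fold change of 0.29 ± 0.06 (SE), a rise of 22.1%, had an adjusted p of 0.00229. It was 0.22 without cKO replicate 2 (adjusted p = 0.0114) and Igf1 was called under all 13 alternatives.

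The receptor genes went in opposite directions. Insr, the insulin receptor, had 55.1, 51.5 and 51.2 CPM in controls versus 43.8, 46.8 and 48.0 CPM in cKO, and the groups did not overlap. It fell to 0.864 of the control level, a log2 change of -0.21 ± 0.04 (SE, adjusted p 0.00314). Igf1r, the IGF1 receptor, had 98.2, 97.4 and 95.9 CPM in controls versus 100.7, 116.7 and 109.5 CPM in cKO. The lowest cKO sample was only slightly above the highest control sample, and cKO replicate 2 was the highest. The fit gave Igf1r a log2 change of 0.14 ± 0.04 (SE) with an adjusted p of 0.0332. This call was lost in 5 of the 6 fits that left out 1 sample. The adjusted p was 0.0705 without control replicate 1, 0.107 without control replicate 2, 0.133 without control replicate 3 and 0.122 without cKO replicate 3. Without cKO replicate 2 it was 0.135, with a log2 fold change of 0.091. Without cKO replicate 1, the lowest cKO sample, the log2 fold change was 0.19 (adjusted p = 0.000372). The ratio of Igf1r to Insr, per length of exon, was 1.46, 1.55 and 1.53 in control and 1.88, 2.04 and 1.87 in cKO. That its groups did not overlap follows from the levels of both genes given above and is not a separate result.

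Among the binding proteins, Igfbp7, Igfbp2 and Igfbp4 were upregulated. Igfbp7, a secreted protein that binds IGFs with low affinity, had 117, 122 and 121 CPM in controls versus 164, 176 and 158 CPM in cKO. The distance between the groups was wider than the spread within either, and the log2 change was 0.44 ± 0.04 (SE, adjusted p 5.84e-07). Igfbp2, whose promoter is shown above, had 52.0, 52.6 and 52.1 CPM in controls versus 66.3, 64.4 and 67.4 CPM in cKO. The control samples of Igfbp2 were nearly equal, and cKO replicate 2 was its lowest cKO sample. It rose by a log2 change of 0.31 ± 0.03 (SE, adjusted p 1.33e-05). Igfbp4, which inhibits IGF action and is the classical substrate of PAPP-A, had 72.0, 73.9 and 72.1 CPM in controls versus 80.0, 90.1 and 87.05 CPM in cKO. All cKO samples of Igfbp4 were higher than the controls, with cKO replicate 1 closest to them. For Igfbp4 the log2 change was 0.22 ± 0.04 (SE, adjusted p 0.00144). These 3 genes were called under all 13 alternatives.

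Igfbp3, Igfbp5 and Igfbp6 did not pass the test. Igfbp3, the main carrier of IGFs in serum, had 28.65, 29.3 and 28.5 CPM in controls versus 28.0, 29.2 and 28.9 CPM in cKO. Its samples overlapped and the log2 change was -0.03 ± 0.04 (SE, adjusted p 0.699). Igfbp6, which prefers IGF2 to IGF1, had 22.05, 21.3 and 21.04 CPM in controls versus 22.7, 21.03 and 23.4 CPM in cKO, with a log2 fold change of 0.03 (SE 0.05, adjusted p 0.734). Igfbp5, a binding protein produced by differentiating myoblasts, had the highest counts of the 10 genes, with 237, 242 and 250 CPM in controls versus 225.5, 283 and 225 CPM in cKO. cKO replicates 1 and 3 were below all controls and cKO replicate 2 was above them. The fit gave Igfbp5 a log2 change of -0.02 ± 0.06 (SE) with an adjusted p of 0.913. Leaving out cKO replicate 2 moved this to -0.13 and Igfbp5 was downregulated (adjusted p = 0.0102), whereas scaling by total counts gave 0.0093. Igfbp2 and Igfbp5, adjacent on chromosome 1, thus had different outcomes in the test, although the difference between them was not itself tested.

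The 6 binding protein genes summed to 210, 215 and 214 CPM per kilobase in control and to 257, 276 and 255 in cKO. Igfbp7 made up 46.6% ± 0.368 of this sum in control and 52.3% ± 0.845 in cKO (SD, n = 3). The share of Igfbp5 was 18.98% ± 0.396 in control and 15.5% ± 1.38 in cKO. For both shares the groups did not overlap. The level of Igfbp5 itself overlapped, with 40.4 ± 1.09 CPM per kilobase in control and 40.7 ± 5.52 in cKO, so its lower share goes with the larger sum. No test was made of these sums.

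Igf2bp2 had the largest log2 fold change of the 10 genes, and the lowest level. It had 9.32, 8.80 and 9.98 CPM in control, from 527, 557 and 613 counts, and 12.8, 14.3 and 13.5 CPM in cKO, from 614, 844 and 754 counts. The groups were well separated, and cKO replicate 2 was again the highest. The log2 change was 0.51 ± 0.06 (SE, adjusted p 4.72e-05), which is 1.42-fold. With each sample left out in turn it ranged from 0.46 to 0.56, and Igf2bp2 was called in all of these fits.

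**Figure D2:**
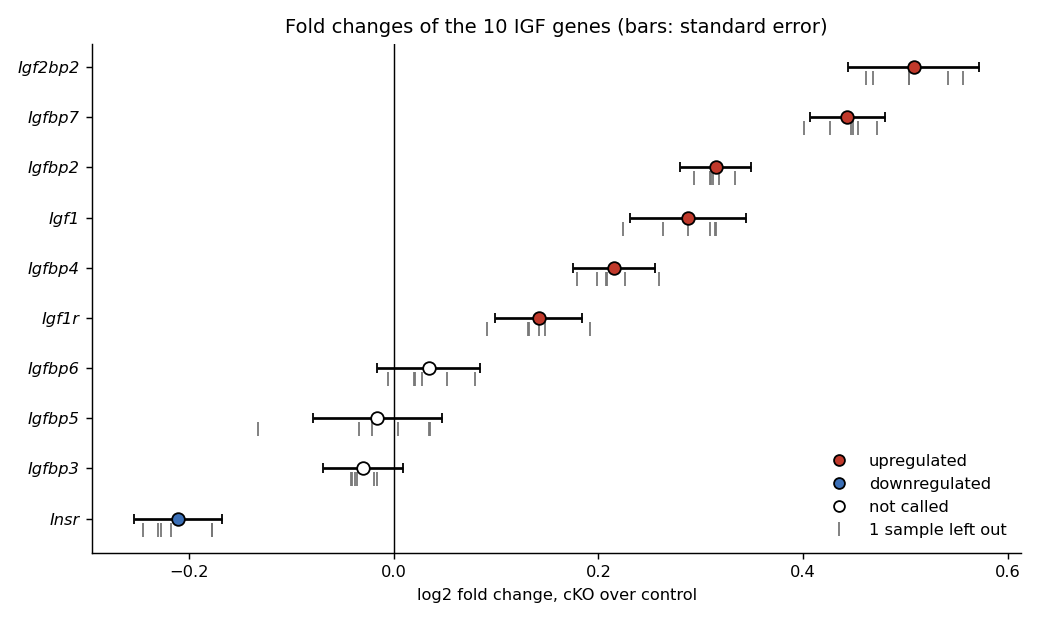
Log2 fold change of cKO over control (x axis) for the 10 IGF genes, with bars for the standard error, red points for upregulated, blue for downregulated and white for genes that did not pass the test. Grey ticks give the value with each of the 6 samples left out, which stay on one side of 0 for 8 genes and lie on both sides for Igfbp5 and Igfbp6.

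cKO replicate 2 was the highest cKO sample for 7 of the 10 genes and for 5 of the 6 upregulated ones, Igfbp2 being the exception. Over the 6 samples, the tested genes whose log2 CPM was most like that of Igf2bp2 were Duxbl2, Ulbp1, Sash1, Nkd2 and Mdm2, with Pearson correlations of 0.998 to 0.997 among 16631 genes compared. Those most like Insr, the downregulated gene, were Vps13c, Acsl4, Rb1, Cops5 and Emp2, with correlations of 0.999 to 0.995. These correlations are a description, since the 6 points share their libraries and fall into separated groups.

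Genes used as markers of other cell types also differed between the groups. The paper proposes that endothelial and other alternative lineage genes rise within satellite cells that lack Hira. It also reports VE-Cadherin staining of such cells, and higher RNA of Cdh5, Pdgfra and Angpt2 in them by RT-qPCR. In Hira-knockout C2C12, a myoblast cell line, the paper reports that these genes rose and gained the histone mark H3K4me3. There, knocking out Mll1 or Mll2, which encode H3K4 methyltransferases, prevented the expression of Cdh5. Over all genes tested, 9.38% were upregulated and 6.46% downregulated. Summed over a list of 12 macrophage markers, led by Lyz2, the level was 123 to 128 CPM in controls versus 261 to 306 CPM in cKO, and 11 of the 12 were upregulated. A list of 12 fibroblast markers, led by Col1a2, had 1142 to 1218 CPM in controls versus 1595 to 1785 CPM in cKO, with 8 upregulated. Most of this sum was Col1a2 and Col3a1, with 586 ± 29.3 and 393 ± 12.8 CPM in controls (SD, n = 3). Their log2 changes were 0.26 and 0.21, while those of all tested genes of the list ran from 0.21 to 1.29 with a median of 0.77. A list of 10 endothelial markers had 20.9 to 22.6 CPM in controls versus 31.3 to 36.6 CPM in cKO, with 5 upregulated. The 8 smooth muscle and pericyte markers had 3251 to 3310 CPM in controls versus 3530 to 3669 CPM in cKO, with 5 upregulated and 2 downregulated. Most of this sum was Acta2, with 2929 ± 29.9 CPM in controls and 3180 ± 49.95 CPM in cKO (SD, n = 3), while the log2 changes of the tested genes of the list ran from -0.28 to 0.98. No gene of these lists was at 0 in all samples, and Kcnj8, of the smooth muscle list, had at most 3 counts in any sample. For the macrophage, fibroblast, endothelial and smooth muscle sums cKO replicate 2 was the highest sample, as for Igf1, Igf1r, Igfbp4, Igfbp7 and Igf2bp2. For Igfbp2, also upregulated, it was the lowest cKO sample (64.4 CPM). Among cKO samples, replicate 2 was also the highest for Hira (293 counts) and for the sum of cycling cell markers (1223 CPM). It was the lowest for the sums of satellite cell and differentiation markers (5360 and 29670 CPM). Macrophages and fibroblasts are known sources of Igf1 in injured muscle, and endothelial cells and fibroblasts of Igfbp7. The sort selected against CD45, which macrophages carry, and against SCA1, which fibro-adipogenic progenitors and many endothelial cells carry. Ptprc, which encodes CD45, was upregulated, with 1.43 ± 0.137 CPM in controls versus 2.83 ± 0.184 CPM in cKO (SD, n = 3). Its log2 change was 0.96 (adjusted p = 5.22e-05 from edgeR). Ly6a, which encodes SCA1, had 3.04 ± 0.166 versus 3.66 ± 0.241 CPM and did not pass the test (log2 change 0.24, adjusted p = 0.115). In bulk RNA, expression of these genes by satellite cells and RNA from other cells in the culture cannot be told apart. The part of either in the upregulated IGF genes was not tested.
Markers of the muscle lineage were abundant, and their sums were lower in cKO. Satellite cell markers summed to 5948 to 6007 CPM in controls versus 5360 to 5695 CPM in cKO, with 7 of 10 downregulated and 1 upregulated. Most of this sum was Des, with 3199 ± 27.7 CPM in controls and 2925 ± 174 CPM in cKO (SD, n = 3). The upregulated gene was Cd34, a marker used in the sort (log2 change 0.49, adjusted p = 0.00649 from edgeR). Pax7 had 39.3 ± 0.748 CPM in controls versus 35.1 ± 2.08 CPM in cKO (SD, n = 3). Differentiation markers, led by Ttn, summed to 36010 to 37100 CPM in controls versus 29670 to 32040 CPM in cKO, with 8 of 12 downregulated and 1 upregulated. Ttn, a very long gene, had 13683 ± 304 CPM in controls and 10117 ± 192 CPM in cKO (SD, n = 3). Its log2 change was -0.46, against a median of -0.18 for the list. Of 10 markers of cycling cells 4 were downregulated and 0 upregulated. The sum of these was 1262 to 1274 CPM in controls versus 1107 to 1223 CPM in cKO. In bulk RNA, fewer cells of a type and less RNA per cell cannot be told apart. The part of these differences in the lower level of Insr was not tested either.

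**Figure D3:**
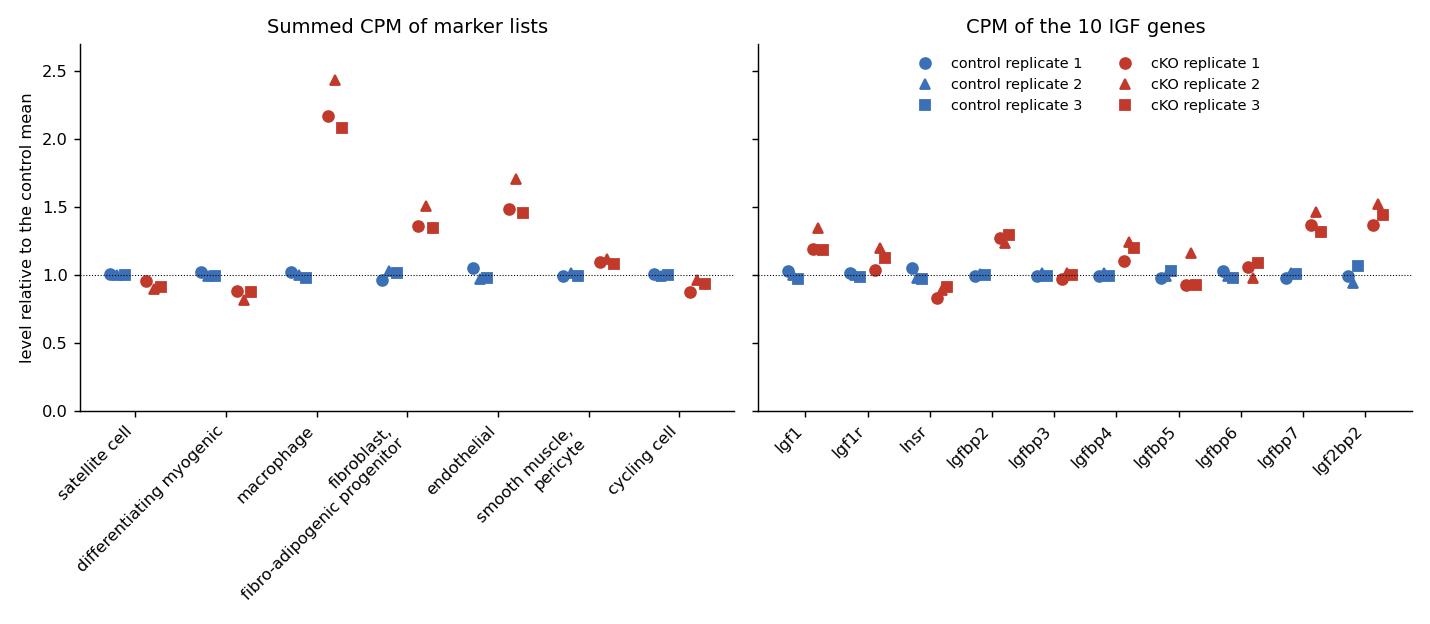
Summed CPM of 7 lists of cell type markers (left) and CPM of the 10 IGF genes (right), each divided by the mean of the 3 control samples (dotted line at 1), with blue for control, red for cKO and the shape of the point for the replicate. Of the sums, that of the macrophage list rises most, to 2.23 times the control level on average. cKO replicate 2 (red triangle) is the highest cKO point for that sum and for Igf1, Igf1r, Igfbp3, Igfbp4, Igfbp5, Igfbp7 and Igf2bp2.

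Beyond the 10 genes, 78 other genes of the IGF pathway were listed by role, of which 71 could be tested. Of these 9 were upregulated and 16 downregulated, and the median log2 change was -0.0071. Over all genes tested, 9.38% were upregulated and 6.46% downregulated, with a median of -0.0011. With scaling by total counts alone 14 were upregulated and 10 downregulated. That scaling raised the share of upregulated genes among all called genes from 59.2% to 70.0%.

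Of the other ligands and receptors, Igf2 was lower in cKO, with 22.6 ± 2.61 CPM in controls versus 17.9 ± 2.24 CPM in cKO (SD, n = 3) and a log2 change of -0.35 (adjusted p 0.00914). Its counts are uncertain, because 62.8% of its exonic bases are also annotated to Gm49394 on the same strand. Igf2r, the scavenger receptor that clears IGF2, had 496 ± 5.33 and 509 ± 7.58 CPM and did not pass the test (log2 change 0.01, adjusted p = 0.806). Ins1, Ins2 and Insrr had between 0 and 3 counts in every sample and were not tested.

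The list of other binding proteins, IGFBP proteases and their inhibitors had the highest median log2 change of the 7 lists, 0.53, with 3 of 6 tested genes upregulated and 0 downregulated. Pappa, which encodes PAPP-A, had 3.20 ± 0.035 CPM in controls versus 7.24 ± 0.539 CPM in cKO, a log2 change of 1.16 (adjusted p 1.1e-07). Its relative Pappa2 rose from 0.630 ± 0.090 to 1.26 ± 0.238 CPM (log2 change 0.97, adjusted p = 0.00335). Htra1, a secreted serine protease that cleaves IGFBPs, rose from 12.3 ± 0.271 to 20.2 ± 0.960 CPM (log2 change 0.69, adjusted p = 2.2e-07). The pappalysin inhibitors Stc1 and Stc2 did not pass the test, with log2 fold changes of 0.37 and -0.04, nor did Igfals, the subunit of circulating IGF complexes (-0.18). Igfbp1, which lies 3539 bp from Igfbp3, and Igfbpl1 each had 1 count in cKO replicate 1 and 0 in the other samples, which is under the floor of 3 counts.

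The relatives and partners of Igf2bp2 had a median of 0.29, with 3 of 6 tested genes upregulated and 0 downregulated. Igf2bp1, a fetal RNA-binding protein of the same family, rose from 0.700 ± 0.181 CPM in controls to 2.40 ± 0.174 CPM in cKO, a log2 change of 1.74 (adjusted p 3.18e-06). The third member, Igf2bp3, had a log2 fold change of 0.30 and did not pass (adjusted p = 0.191), and 18.7% of its exonic bases lie opposite Malsu1. Hmga2, a chromatin protein that activates Igf2bp2, had 69.3 ± 6.88 CPM in controls versus 85.6 ± 24.3 CPM in cKO (log2 change 0.29, adjusted p = 0.208). Without cKO replicate 1 the log2 fold change of Hmga2 was 0.50 (adjusted p = 1.55e-06), and with no filter on low counts it was called with a value of 0.28. Hmga1 was upregulated (0.59, adjusted p = 1.14e-08), although 46.9% of its 75-base windows also occur in other genes, mostly Hmga1b. Myc, whose mRNA the IGF2BP proteins bind, was upregulated with a log2 change of 0.26 (adjusted p 0.00121). The let-7 target Nras had a log2 fold change of 0.01 and did not pass. Lin28a and Lin28b, which block let-7, had at most 13 counts in any sample and were not tested.

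Downstream of the receptors, most genes did not pass the test. Among 16 adaptor and PI3K-AKT genes 1 was upregulated and 4 were downregulated, with a median of -0.0049. Pik3r1, the regulatory subunit of PI3K, rose from 48.0 ± 0.164 to 57.3 ± 3.15 CPM (log2 change 0.23, adjusted p = 0.000671 from edgeR). Downregulated were the adaptor Grb2 (-0.20), the kinase Akt2 (-0.16), the PI3K subunit Pik3r3 (-0.15) and Pdpk1, the kinase that activates AKT (-0.10). Of these, Grb2 lost its call without control replicate 1 (adjusted p = 0.0561), Pik3r3 without any 1 of the control samples or without cKO replicate 2 (0.0667 to 0.102), and Pdpk1 without any sample except cKO replicate 2 (0.0547 to 0.178). Akt1, the most abundant of the list per length, had a log2 change of -0.0027 (adjusted p 0.973), which turned positive with total-count scaling. Pik3r3 also lost its call with DESeq2 (adjusted p = 0.0537) and with total-count scaling (0.0617), and Pdpk1 with the likelihood-ratio test (0.0563) and total-count scaling (0.148). Of the exonic bases of Pik3r3, 24.3% are shared with Gm49337 on the same strand.
Of 15 genes of the mTORC1 and GSK3 branch 0 were upregulated and 3 were downregulated, with a median of -0.055. These were Gsk3b, a kinase inhibited by AKT (-0.16, adjusted p = 0.00321), the mTOR inhibitor Deptor (-0.14, adjusted p = 0.0136) and the S6 kinase Rps6kb1 (-0.11, adjusted p = 0.0332). Deptor lost its call without control replicate 1 (0.0877) and Rps6kb1 without any sample except cKO replicate 2 (0.054 to 0.138) and with total-count scaling (0.104). Rps6, the most abundant per length, had a log2 change of 0.04 (adjusted p 0.55), and 42.2% of its windows occur in other genes.

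Of 12 inhibitors of receptor signalling 2 were upregulated and 2 downregulated. Enpp1, a membrane protein that inhibits the insulin receptor, rose from 3.89 ± 0.164 to 5.16 ± 0.541 CPM (log2 change 0.38, adjusted p = 0.00905 from edgeR), and Socs3, a feedback inhibitor, had a log2 change of 0.33 (adjusted p 0.00169). Grb10, an adaptor that binds and restrains both receptors, had 841 ± 7.08 CPM in controls versus 794 ± 28.6 CPM in cKO (log2 change -0.11, adjusted p = 0.0344). The lipid phosphatase Inppl1 had a log2 change of -0.10 (adjusted p 0.0257), and 20.3% of its exonic bases lie opposite other genes. Grb10 lost its call in every fit without 1 sample except that without cKO replicate 1 (0.0582 to 0.13), and with total-count scaling (0.0913). For Inppl1 it was lost without any 1 of the control samples or without cKO replicate 3 (0.0593 to 0.124), and with total-count scaling (0.0945).
FoxO factors and their targets in muscle were the list with the most downregulated genes, 6 of 14, against 6.46% of all genes. In this list 0 were upregulated and the median was -0.069. The other 8 genes did not pass the test, and 5 of the 14 had a positive log2 change. The transcription factors Foxo6 and Foxo1 had log2 fold changes of -0.31 (adjusted p = 0.00224) and -0.25 (adjusted p = 0.00127). The targets Fbxo30, a ubiquitin ligase of muscle atrophy, and Sesn1, a stress-induced inhibitor of mTORC1, had -0.22 (adjusted p = 0.00179) and -0.21 (adjusted p = 0.00382). For Bnip3, a mitophagy receptor, the log2 fold change was -0.26 (adjusted p = 0.0326) with overlapping groups, and 34.4% of its 75-base windows occur in other genes. It was -0.15 without cKO replicate 2 (adjusted p = 0.0517), and the call was also lost without control replicates 1 (0.114) and 3 (0.105) and cKO replicate 3 (0.0533), and with DESeq2 (0.203). Gabarapl1, the most abundant per length, had -0.05 (adjusted p = 0.49).

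**Figure D4:**
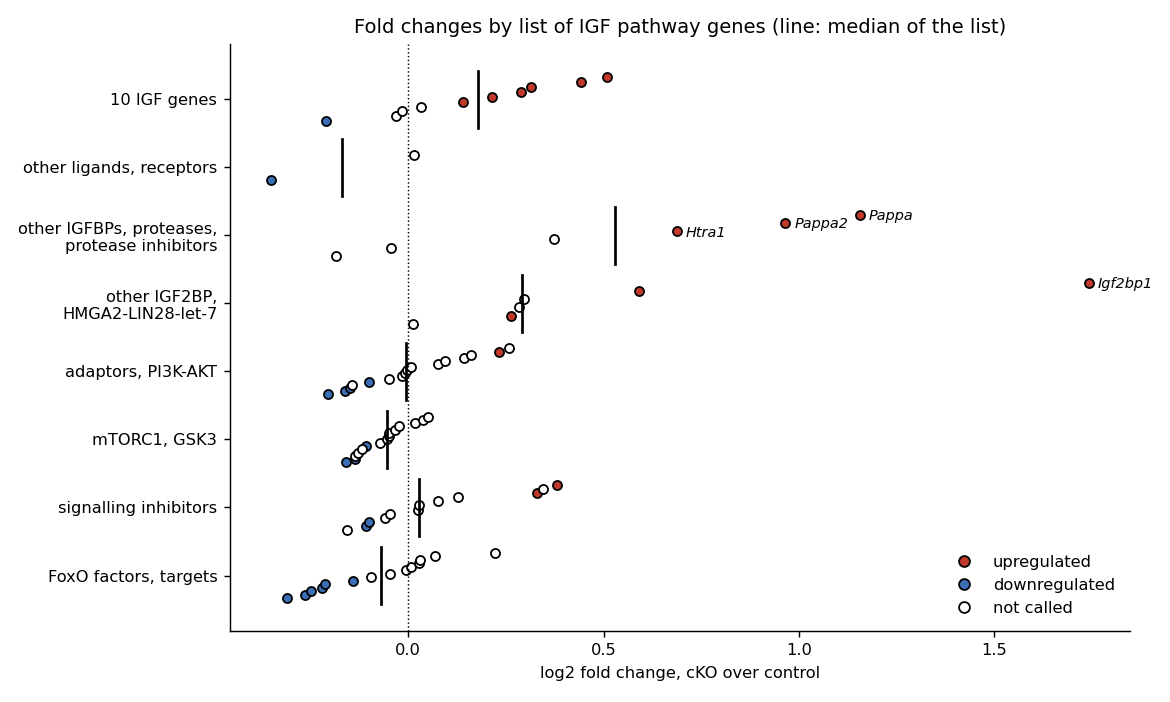
Log2 fold change of cKO over control (x axis) of the 10 IGF genes and of 71 other tested genes of the pathway in 7 lists (rows), each point a gene, with red for upregulated, blue for downregulated and white for not passing the test; the black line is the median of the list. The points farthest to the right are Igf2bp1, Pappa, Pappa2 and Htra1, and the lists downstream of the receptors lie near 0.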

How the data were processed

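RNA from 6 samples of cultured satellite cells (400 ng each, ribosomal RNA removed, stranded single-end reads of 75 bp) was used. Per the labels, the deposited values are raw counts per gene, which the authors made with featureCounts 1.6.3 after alignment to mm10 (Bowtie2 2.3.4.2); the strand setting and annotation of the counting are not given in the sources used here. Bowtie2 does not split reads, so reads over exon junctions are left out. The authors' normalized values and DESeq2 comparison (mean, fold change, p-value) were not used.

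Symbols, exons and coordinates came from GENCODE M21, which held all 55536 identifiers. Counts were filtered with filterByExpr, scaled by TMM and tested with edgeR 4.0.16 under R 4.3.3 (quasi-likelihood test, no term besides genotype), with Benjamini-Hochberg adjustment over 22404 genes. The script was tested on simulated counts. A gene of the lists is not reported here and was left out of their counts. The alternatives were DESeq2 1.42.0, the likelihood-ratio test, RLE and total-count scaling, 2 other filters, a replicate block, leaving out each sample, and the longest transcript as length. Python 3.11.15 with pandas 2.3.3 and matplotlib 3.10.9 made summaries and plots.

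The lists were written from general knowledge, and the members and lists were chosen with earlier results of these data known. All members were named, every gene of lists of up to 9 genes, and in longer lists up to 5 called genes with the largest change plus the most abundant one. Of marker lists, Pax7, Cd34, Col3a1, Kcnj8, Ptprc and Ly6a were named outside this rule, after their values were seen. Cdh5 and Pdgfra, also of these lists, were named for the paper's results. Genes at or under 3 counts were treated as at a floor, for counting error only. The study describes independent RNA samples without saying whether each came from a separate mouse, so p-values measure the spread between these samples. Counts of replicates differed by more than sampling noise (chi-square per degree of freedom 2.04 to 9.50). Deviations of same-numbered control and cKO samples had correlations of -0.0145 to -0.0045, and those of differently numbered samples -0.0074 to 0.020. No pairing by number was seen, but so few samples cannot show that there was none.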

Additional observations from a re-analysis of the deposited data

How the results depend on the processing

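The direction of 8 of the 10 IGF genes was the same under all 13 alternatives, and 6 of the 7 calls were kept under each of them. Igf1r lost its call in 5 fits without 1 sample. Depth limits Igf2bp2 and Igf1 most among the 10 genes, and small changes such as that of Igf1r rest on replicates lying close together. The cause of each difference below was not tested, except that fits without a sample have fewer samples.

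With each sample left out, upregulated IGF genes numbered 5 to 6 and downregulated ones 1 to 2, and all downregulated genes 917 to 1673. The log2 fold change ranged from 0.091 to 0.19 for Igf1r, from -0.13 to 0.036 for Igfbp5, from -0.0054 to 0.079 for Igfbp6 and from -0.52 to -0.29 for Hira. Upregulated genes of the pathway numbered 9 to 16 and downregulated ones 7 to 15. The ranges were 1 to 4 in either direction for adaptors and PI3K-AKT kinases, 1 to 3 downregulated for mTORC1 and GSK3, and 2 to 5 upregulated and 0 to 2 downregulated for inhibitors. Akt1 ranged from -0.021 to 0.014, being positive without control replicate 1 and cKO replicate 1 (0.0066).

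With total-count scaling, Igfbp5 had 0.0093 (adjusted p = 0.951), Akt1 0.022, and 14 pathway genes were upregulated and 10 downregulated. It gave 5 upregulated and 2 downregulated adaptor and PI3K-AKT genes and 0 downregulated inhibitors. Upregulated genes of the PI3K-AKT list numbered 3 with the likelihood-ratio test, 3 with no filter and 2 with the filter of 1 CPM, which put Akt1 at 0.0026. With DESeq2, Pik3r3 (adjusted p = 0.0537) and Bnip3 (0.203) lost their calls. With no filter 6 mTORC1 and GSK3 genes were downregulated.

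With the longest transcript as length, control levels per kilobase were 2.08 for Igf1, 8.52 for Igf1r, 5.62 for Insr, 39.95 for Igfbp2, 11.9 for Igfbp3, 18.96 for Igfbp4 and 1.89 for Igf2bp2. The summed binding proteins were then at 230.6 in control and 284 in cKO.

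No pairing by replicate number was seen, and with the replicate block 6 IGF genes were upregulated and 1 downregulated, against 1901 and 1251 of all genes. The log2 fold changes of the 10 genes were -0.21 to 0.51 under the block, and 1 inhibitor was downregulated. Pdpk1, Rps6kb1 and Grb10 lost their calls (adjusted p = 0.0787, 0.0577 and 0.0582 from edgeR).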
